A study of Mus musculus with 24 samples.

Results

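The genes described here encode the nuclear subunits of the 5 mitochondrial complexes of oxidative phosphorylation. They were chosen by gene symbol alone, from all rows of the deposited expression table. Symbols taken for complex I start with Ndufa, Ndufb, Ndufc, Ndufs or Ndufv and a number. The 4 Sdh genes and every symbol starting with Uqcr or Atp5 were also taken. Cytochrome c oxidase symbols run from Cox4 to Cox8 with the letter a, b or c directly after the number, so Cox4i1 and Cox4i2 fall outside. Names marking antisense, retrotransposed or pseudogene rows were set aside. The rule took 87 of 27179 rows. Among them Uqcrh-ps1 is a pseudogene that the rule's wording did not remove (5.35 to 16.6 normalised counts), and it was kept out of the counts by complex. The other 86 are 41 genes named for complex I, 4 for complex II, 8 for complex III, 16 for complex IV and 17 for complex V.

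The study sequenced RNA of flow-sorted PDGFRb+ cells, progenitors and related stromal cells of C57BL/6 mouse white fat, in 24 bulk libraries that fall into 8 groups of 3. From gonadal fat came 2 populations, named APC and FIP, and from inguinal fat 2 populations sorted on DPP4, DPP4_neg and DPP4_pos, each in females (F) and males (M). All groups thus share the strain and the PDGFRb+ gate, and no group carries a transgene or received a treatment by the labels. The labels do not give ages, the gates that separate FIP from APC, or whether the 3 libraries of a group came from separate animals, so the p-values measure the spread between libraries, which may be technical. The design compares populations within a depot, sexes within a population, and depots.

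Oxidative phosphorylation runs along the inner mitochondrial membrane. Complex I takes electrons from NADH and complex II from succinate, both pass them to ubiquinone, complex III hands them to cytochrome c, and complex IV gives them to oxygen, while the proton gradient built on the way drives ATP synthesis by complex V. Most subunits are encoded in the nucleus and imported, and the remainder are encoded by mitochondrial DNA. Several complex IV subunits exist as paired isoforms, one made widely and the other mainly in muscle, heart, brown fat or testis.

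All values are read counts that the authors divided by a size factor per library, called normalised counts here. Pdgfrb, the gene of the sorting marker, lay between 1730 and 6277 normalised counts and Pdgfra, a receptor of the same progenitors, between 6232 and 19530 in the 24 libraries. In 21 libraries, whose whole reads could be recovered from the values, the reads assigned to genes summed to 9152470 to 18221692. A single library stood apart: in M_DPP4_neg replicate 1 the subunit genes lay a median of 0.57 (log2) above the other 2 replicates of its group, and 73 of 78 lay above both. Short genes did so generally there (median 0.45 for genes with up to 1 kb of exon), and genes over 4.5 kb lay lower (median -0.24). The subunit genes are short, with a median exon length of 977 bases against 3282 for all 14517 genes tested. Counts and differences of subunit genes that use the male DPP4_neg group are therefore given with and without that library, and the median of other genes of up to 1 kb is given beside the main comparisons. The part of gene length in the results was not tested beyond these values.

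**Figure D1:**
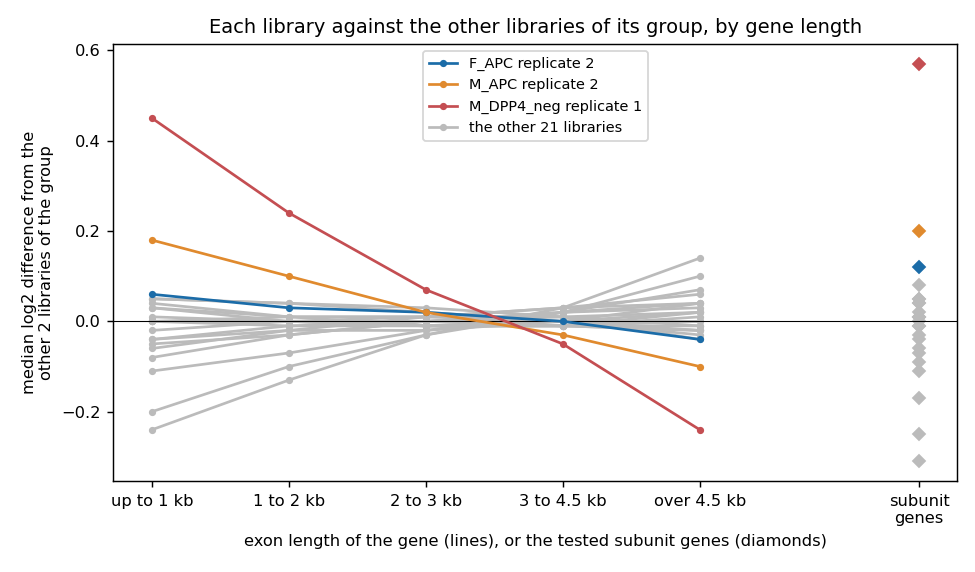
Median log2 difference of each library from the other 2 libraries of its group (vertical axis) by class of exon length (horizontal axis, lines), with the tested subunit genes as diamonds. M_DPP4_neg replicate 1 lies at 0.45 for genes up to 1 kb and at 0.57 for the subunit genes; M_APC replicate 2 and F_APC replicate 2, at 0.20 and 0.12 for the subunit genes, come next.

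A gene was tested where at least 3 libraries reached 10 normalised counts. Of the 86 genes, 78 passed: 38 of complex I, 3 of complex II, 7 of complex III, 13 of complex IV and 17 of complex V. The 8 others were at or near 0 throughout. Sdhd, a membrane anchor of complex II, lay between 0 and 3.3, and Uqcr11, a small complex III subunit, was at 0 in 22 libraries. Cox7b2 was at 0 in all 24, Cox8c in 23 and Cox6a2 in 16; the remaining genes not tested were Ndufb4b, Ndufb4c and Ndufa11b. Cox7a2, usually a widely made subunit, passed with only 5.35 to 19.8 normalised counts. Several subunit genes have processed copies elsewhere in the genome, and reads shared with such copies could have been lost or split, so levels of these genes are uncertain. Symbols starting with the same letters also took in Atp5s, a factor coupling ATP synthase, Cox7a2l, a supercomplex factor, and Ndufa4, a subunit now placed in complex IV. They are counted where their names put them.

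Per kb of exon, the mean normalised count over the 24 libraries was highest for Atp5b, the catalytic beta subunit of complex V (3015), Cox6a1, a complex IV subunit (2354), and Atp5e, a small complex V subunit (2032). The medians per kb were 289.8 for complex I, 488.8 for complex II, 497.9 for complex III, 541.9 for complex IV and 626.0 for complex V. The order of the complexes is a description of these tables, since genes within a complex spread widely (46.85 to 1132 in complex I, and 31.55 to 3015 in complex V).

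**Figure D2:**
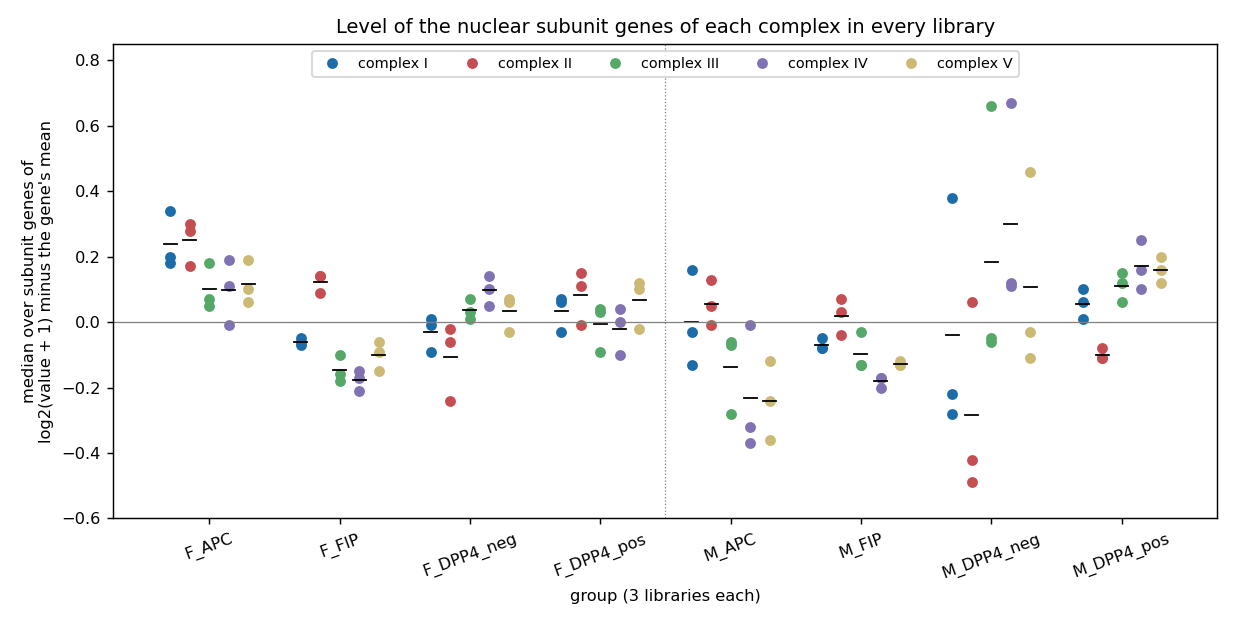
Level of each complex in the 24 libraries: the median over its tested genes of log2(value + 1) minus the gene's mean over all libraries (vertical axis), by group (horizontal axis); points are libraries, colours are complexes and short lines are group means. In M_DPP4_neg 1 library lies far above the other 2 in every complex, and the complex IV and V points of M_APC lie at or below 0 while nearly all of those of F_APC lie above it.

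Most differences among the 8 groups were small. In 12 pairwise comparisons, tested with limma on log2(normalised count + 1) with Benjamini-Hochberg adjustment over all 14517 genes and called at an adjusted p under 0.05, 71 of the 78 genes (91%) were called at least once and 7 never; of all genes tested 96.9% were called at least once. Differences beyond 2-fold were found for 4 genes alone, Ndufa4l2, Cox8b, Cox6b2 and Cox7a1, all of them isoforms or paralogs. Genes called often included Ndufa4l2 (10 of 12), Cox8b (9), Sdha (9), Ndufa1 (8) and Cox6b2 (7). The comparisons share groups, so these counts are not independent. In bulk libraries, fewer cells of a type and less RNA per cell cannot be told apart.

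**Figure D3:**
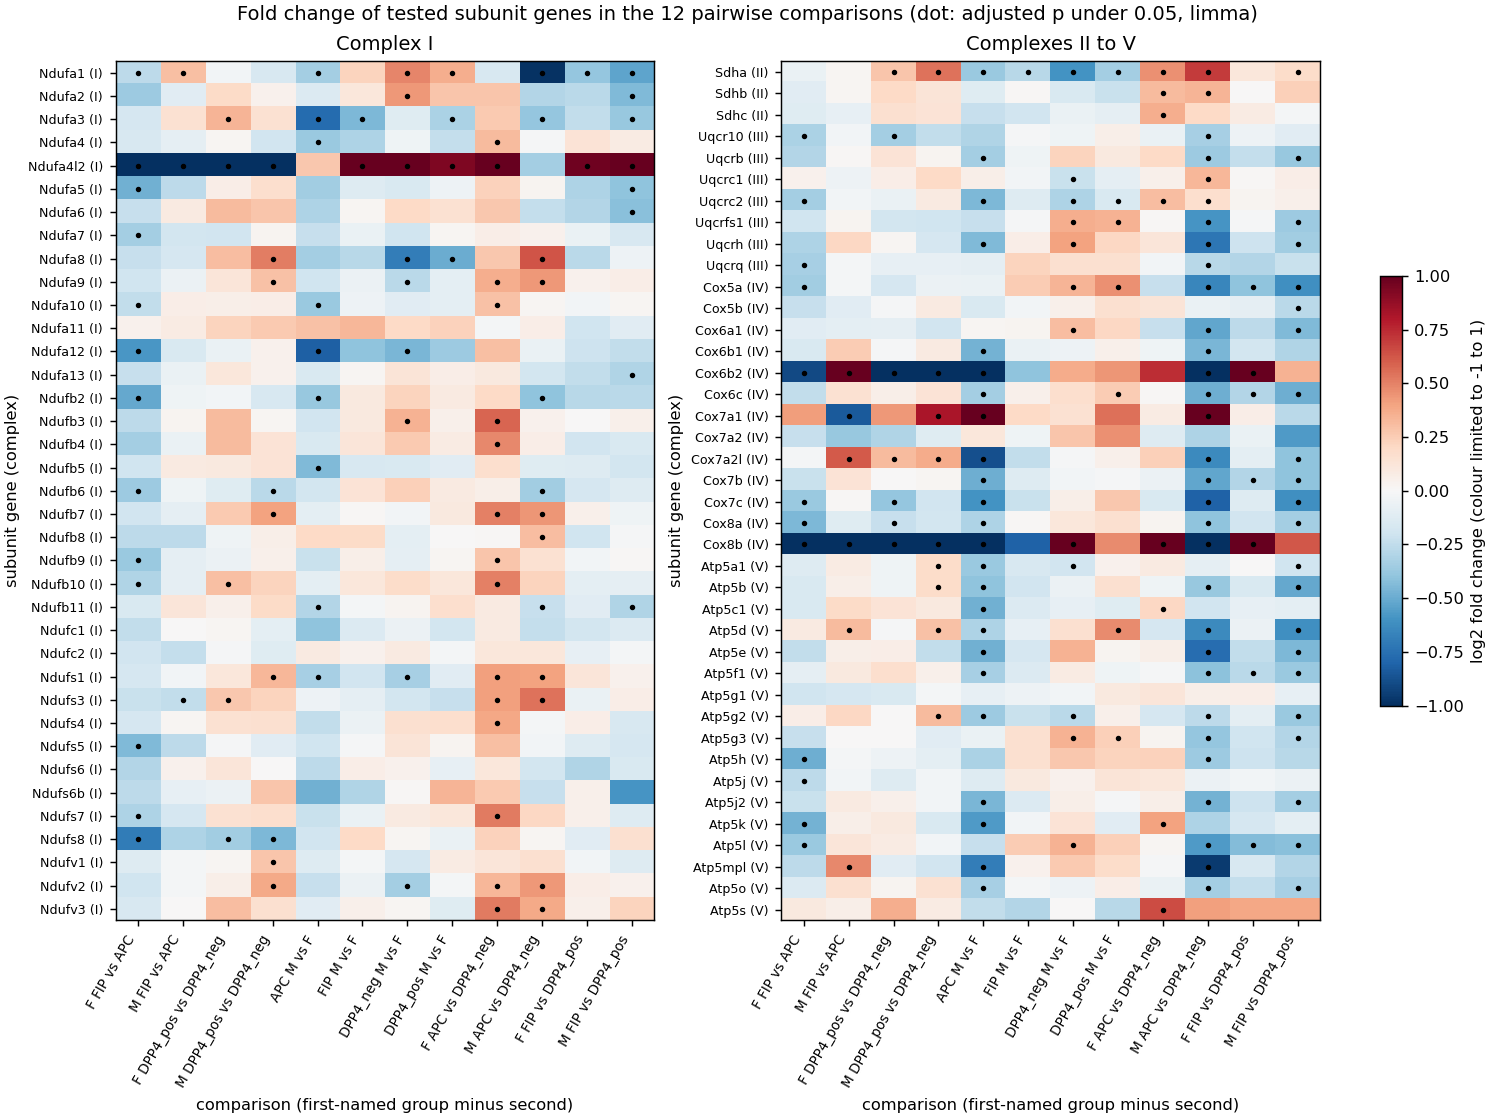
Log2 fold change (colour, limited to -1 to 1) of the tested genes (1 not shown), in rows by complex, in the 12 pairwise comparisons (columns, first-named group minus the other); dots mark calls at an adjusted p under 0.05 (limma). In the columns for male against female APC and for male APC against DPP4_neg, the dots of complexes III to V lie mostly in blue cells.

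The comparison of depots sets gonadal APC against inguinal DPP4_neg cells, both called APC populations in the study's design. In females, 24 of 78 subunit genes were higher in APC and 0 lower, a share called of 30.8% against 59% of all genes tested (26.8% higher and 32.2% lower). Under quantile normalization, which moved the median of all genes here from -0.02 to 0.11, 39 subunit genes were higher and 0 lower, and 56.6% instead of 45.4% of all calls were higher. Without quantile normalization, complex I and complex II held most of the 24 higher genes, with 16 of 38 and 3 of 3. Complexes III, IV and V had 1, 1 and 3. After removal of the trend with exon length from each library, an alternative chosen after seeing the data, 22 were higher and 4 lower (60.6% of all genes called). Without either alternative, 5 of 7 genes of the catalytic core of complex I were higher. The median over the 78 was 0.15 (log2), against -0.02 for all genes and 0.07 for the other genes of up to 1 kb. Markers of other cells differed between these groups. Adipocyte markers were all called higher in F_APC, from 1.01 (log2) for Cfd to 4.28 for Plin1. All 10 epithelial markers were lower in F_APC, with sums of 55.89 to 208.8 against 4214 to 10160 in F_DPP4_neg. Mesothelial markers summed to 4376 to 4523 in F_APC and 6852 to 16550 in F_DPP4_neg. Macrophage markers summed to 371.3 to 717.6 and 708.1 to 1514, ranges that overlap. Of these markers 9 of 13 were lower in F_APC, and Cd68 was called higher (0.79, log2). The part of these other cells in the result was not tested.

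Ndufs3, a core subunit of the arm of complex I that passes electrons to ubiquinone, was higher in APC in both sexes. Its normalised counts were 279, 295 and 329 in F_APC and 217, 228 and 230.4 in F_DPP4_neg. In males it had 267, 293 and 309.5 in M_APC and 178, 191 and 229 in M_DPP4_neg. The groups overlapped in neither sex. The difference was 0.41 ± 0.10 (log2, SE, n = 3 per group; limma, adjusted p = 0.000619) in females and 0.54 ± 0.10 (adjusted p = 2.15e-05) in males, or 0.65 (adjusted p = 1.61e-06) without M_DPP4_neg replicate 1. Ndufs3 lies at chr2:90894627-90904721 (GRCm38).

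Sdha, the flavoprotein that oxidises succinate in complex II, showed the same order. It had 2299, 2334 and 2470 normalised counts in F_APC and 1620, 1746 and 1784 in F_DPP4_neg. In males it had 1754, 1861 and 1898 in M_APC and 1068, 1099 and 1242 in M_DPP4_neg. Every APC library lay above every DPP4_neg library of its sex, with differences of 0.46 ± 0.07 (limma, adjusted p = 1.19e-06) and 0.70 ± 0.07 (adjusted p = 9.7e-10). Without M_DPP4_neg replicate 1 the male difference was 0.76 (adjusted p = 1.73e-10). Sdha lies at chr13:74322255-74350240 (GRCm38).

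In males the calls went in both directions. In M_APC against M_DPP4_neg, 14 genes were higher and 31 lower, 57.7% of the 78 against 66.1% of all genes tested (33.1% higher and 33% lower). Complex I was split, with 9 higher and 5 lower, and complex II had 2 higher. Complex III had 2 higher and 5 lower, complex IV 1 higher and 10 lower, and complex V 0 higher and 11 lower. The median was -0.19 for the 78, 0.02 for all genes and -0.30 for the other genes of up to 1 kb.

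This male result rests in part on M_DPP4_neg replicate 1. Without it, 24 genes were higher and 20 lower (64.4% of all genes called), with 18 higher and 1 lower in complex I, 3 higher in complex II, 9 lower and 1 higher in complex IV and 8 lower in complex V. After removal of the length trend 21 were higher and 23 lower, against 66.9% of all genes called. Lower complex V and complex IV genes, and higher complex II genes, were present in each of these settings, and the counts within complex I moved most. The sum over 14 striated muscle markers was 2029 to 2137 in M_APC and 408 to 533 in M_DPP4_neg. These markers include Des, which is also on the list of mural markers. Ckm, a defining muscle gene, stayed at 19.23 or less in every library. With all libraries, every adipocyte marker was called higher in M_APC, from 0.23 (log2) for Pnpla2 to 2.07 for Retn. The part of such cells in the result was not tested.

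After the isoform genes Cox8b and Cox6b2, the widest fall in male APC against DPP4_neg was that of Ndufa1. Ndufa1 is a small membrane-arm subunit of complex I encoded on the X chromosome. It had 214, 224 and 255 normalised counts in M_APC and 414, 419.7 and 552 in M_DPP4_neg, a difference of -0.99 ± 0.10 (limma, adjusted p = 7.1e-09), and -0.85 (adjusted p = 3.9e-08) without M_DPP4_neg replicate 1. In females the same groups stood at 276 to 310 and 312 to 338 and the gene was not called. Atp5mpl, a small proteolipid of complex V, had 167, 208 and 223 in M_APC and 302, 333 and 575 in M_DPP4_neg (-0.96 ± 0.16, adjusted p = 6.9e-06, and -0.68 without the high library, adjusted p = 1.9e-05). Both pairs of groups were fully separate.

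The genes called higher in APC in both sexes, which share no library, numbered 10 (12.8% of the 78, against 17.8% of all genes tested) and included Ndufa9, Ndufb7, Ndufs1, Ndufs3, Ndufv2, Ndufv3, Sdha, Sdhb and Uqcrc2. These are mainly subunits of the electron-accepting arm of complex I, the catalytic pair of complex II and a core protein of complex III. Cox8b alone was called in opposite directions (5.44% of all genes tested). The difference between the sexes was itself tested: 28 genes had a lower and 2 a higher contrast in males (42.9% of all genes called, 22.6% higher and 20.3% lower), 11 of the lower ones in complex V, 7 in complex IV, 7 in complex I and 3 in complex III. The median of this difference, -0.32, was close to that of the other genes of up to 1 kb, -0.31. Without M_DPP4_neg replicate 1, 21 genes had a lower and 5 a higher contrast in males (42.7% of all genes called) and the median was -0.15. The lower ones then numbered 8 in complex V, 6 in complex IV, 5 in complex I and 2 in complex III. After removal of the length trend 18 were lower and 6 higher (44.1% of all genes called), with a median of -0.11. The widest lower contrasts were those of the isoform genes Cox8b (-5.22), Cox6b2 (-3.40) and Ndufa4l2 (-2.36). Next came Atp5mpl (-0.95, limma, adjusted p = 0.00109), Cox7a2l (-0.87, adjusted p = 3.32e-05) and Uqcrh (-0.84, adjusted p = 0.000643). Atp5mpl, Cox7a2l and Uqcrh stood at -0.67, -0.74 and -0.59 without M_DPP4_neg replicate 1, each still called. Female DPP4_neg libraries carried epithelial markers summing to 4214 to 10160, against at most 402 in any other group, and mesothelial markers of 6852 to 16550, against 50.6 to 91.3 in M_DPP4_neg. Their part in these sex differences was not tested.

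The comparison of sexes within APC gave lower calls in males in each of the 5 complexes. In M_APC against F_APC, 33 of 78 genes were lower and 1 higher. Over all genes tested 44.4% were called, with 22.4% higher and 22.1% lower, and of the subunit genes 43.6% were called. Complex V led with 11 of 17 lower, and all 17 of its genes had a negative difference; in complex IV 8 of 13 were lower, in complex III 3 of 7, in complex II 1 of 3 and in complex I 10 of 38. The 5 genes of the catalytic F1 head of complex V were all lower, with a median of -0.40. The median over the 78 was -0.29, against 0 for all genes and -0.07 for the other genes of up to 1 kb.

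Cox7a2l, which helps complex III and complex IV join in supercomplexes, had 823, 834 and 966 normalised counts in F_APC and 428, 495 and 500.1 in M_APC. The difference was -0.88 ± 0.10 (limma, adjusted p = 1.56e-07). Ndufa3, a small complex I subunit, had 454, 464 and 470.1 in F_APC and 248.9, 251 and 315 in M_APC (-0.77 ± 0.12, adjusted p = 1.56e-05). In both genes every male library lay below every female one. Atp5b had 5714, 6114 and 6420.2 in F_APC and 4432, 4649 and 4767 in M_APC, again without overlap. Striated muscle markers summed to 776 to 883 in F_APC and 2029 to 2137 in M_APC. Adipocyte markers summed to 2359 to 2695 in F_APC and 2215 to 2716 in M_APC, ranges that overlap, but single markers went both ways. In M_APC, Cfd (1.4, log2), Lep (1.63) and Lipe (0.84) were called higher, and Plin1 (-1.41) and Pnpla2 (-0.31) lower. Adipoq, Cidec and Retn were not called. The part of muscle and adipocyte markers in the result was not tested.

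Counts in the other 3 populations were smaller and mixed in direction. In FIP, 1 gene was higher in males and 2 lower (37.2% of all genes called, 18.2% higher and 19% lower), Sdha and Ndufa3 being the lower ones. That count of 3 was 5 without F_DPP4_pos replicate 1, M_DPP4_neg replicate 2 or M_FIP replicate 2, and 12 without M_DPP4_neg replicate 1 (40.6%). In DPP4_pos 8 were higher and 4 lower (52.6% of all genes called, 27.1% higher and 25.5% lower), 12 in all, with 7 without M_DPP4_pos replicate 3 and 23 without M_DPP4_neg replicate 1 (55.4%). Among the higher ones, Atp5d, the delta subunit of the F1 head, had 337, 372 and 445 normalised counts in F_DPP4_pos and 502, 536 and 547 in M_DPP4_pos, a separation of 0.47 ± 0.08 (limma, adjusted p = 5.18e-05). In DPP4_neg 11 were higher and 10 lower (57.4% of all genes called, 27.1% higher and 30.3% lower), but 5 higher and 25 lower without M_DPP4_neg replicate 1 (55.6%), of which complex I held 2 higher and 15 lower. With all 3 libraries complex I had 4 higher and 5 lower, and without F_DPP4_neg replicate 2 the total of 21 was 13. After removal of the length trend 6 were higher and 26 lower (58.1% of all genes called).

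Sdha was the gene called lower in males in all 4 populations, as were 4.93% of all genes tested. The differences were -0.37 in APC (limma, adjusted p = 5.56e-05), -0.28 in FIP (adjusted p = 0.00156), -0.60 in DPP4_neg (adjusted p = 2.62e-08; -0.66 without M_DPP4_neg replicate 1) and -0.34 in DPP4_pos (adjusted p = 0.000103). Its values were 2231, 2251 and 2274 in F_FIP and 1766, 1909 and 1910.4 in M_FIP, and 2024, 2103 and 2117 in F_DPP4_pos against 1528, 1686 and 1726 in M_DPP4_pos. No male library reached a female library of its population.

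Within gonadal fat, FIP were compared with APC. In females 26 of 78 genes were lower in FIP and 0 higher, 33.3% against 39.4% of all genes called, 21.3% higher and 18.1% lower. Complex I had 14 lower, complex III 3, complex IV 5, complex V 4 and complex II 0. The median was -0.23 and that of the other genes of up to 1 kb -0.18. The count was not stable: it was 13 without F_APC replicate 2, 15 without F_FIP replicate 1, 16 without F_FIP replicate 2 and 44 without M_DPP4_neg replicate 1, a library outside the comparison that enters through the shared estimate of spread (42.8% of all genes called). After removal of the length trend it was 14, all of them lower, with a median of -0.10.

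Ndufs8, a core subunit of complex I that carries iron-sulphur clusters, had 266, 277 and 285 normalised counts in F_APC and 146, 174 and 194 in F_FIP (-0.70 ± 0.13, limma, adjusted p = 8.38e-05). Every F_FIP library lay below every F_APC library. Adipocyte markers moved in the same direction: their sum was 2359 to 2695 in F_APC, and F_FIP had 539.9 to 613. Macrophage markers did so too, 12 of 13 being lower, with sums of 371.3 to 717.6 in F_APC and 167 to 227.9 in F_FIP. Their part in the result was not tested.

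In males, 5 genes were higher and 4 lower in FIP than in APC (36.9% of all genes called, 18.9% higher and 18% lower); the count of 9 became 15 without M_DPP4_neg replicate 1 (40.1%), 5 without M_FIP replicate 1 and 16 after removal of the length trend (38.6%). Cox7a2l rose to 686, 732 and 753 in M_FIP, above every M_APC library (0.61 ± 0.10, limma, adjusted p = 3.75e-05), and Atp5d rose from 259, 280.1 and 291 to 336, 348 and 354 (0.32 ± 0.08, adjusted p = 0.00351). The test of the difference between sexes called 6 genes, all higher in males (10.8% of all genes called, 5.46% higher and 5.33% lower), among them Cox6b2, Atp5mpl, Cox7a2l, Ndufa1 and Uqcrc2. It called 10 without M_APC replicate 2 and 17 without M_DPP4_neg replicate 1 (14% of all genes).

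Within inguinal fat, DPP4_pos cells were compared with DPP4_neg cells. In females 5 genes were higher and 8 lower (49.7% of all genes called, 22.6% higher and 27.1% lower), and in males 13 were higher and 5 lower (50.5%, 25.2% higher and 25.3% lower). The female count of 13 became 4 without F_DPP4_neg replicate 2, 7 without F_DPP4_pos replicate 2 and 20 without M_DPP4_neg replicate 1 (53%). Sdha and Cox7a2l were higher in DPP4_pos in both sexes, Sdha by 0.28 (limma, adjusted p = 9e-04) and 0.54 (adjusted p = 1.46e-07; 0.60 without M_DPP4_neg replicate 1). Ndufs8, Ndufa4l2, Cox8b and Cox6b2 were lower in both. Over all genes tested 14.2% were called higher and 14.4% lower in both sexes. Without M_DPP4_neg replicate 1 the male count became 40 higher and 4 lower (50.7% of all genes called), with 24 of the higher genes in complex I, 3 in complex II, 2 in complex III, 3 in complex IV and 8 in complex V, and it fell to 10 without M_DPP4_neg replicate 3 and to 11 without M_DPP4_pos replicate 1 or replicate 2. Ndufv2, a core subunit of the NADH-oxidising module, was high in that library: it had 308, 323 and 570.4 normalised counts in M_DPP4_neg and 454, 520 and 526 in M_DPP4_pos. The male difference was 0.38 (adjusted p = 0.0273) with all libraries and 0.66 (adjusted p = 7.72e-07) without the high one. Macrophage markers were lower in DPP4_pos, all 13 in females (sums of 309.8 to 354.1 against 708.1 to 1514) and 7 of 13 in males (290.7 to 357.2 against 558.6 to 901.2). All 10 epithelial markers were lower in F_DPP4_pos (228.1 to 401.9 against 4214 to 10160), and mesothelial markers summed to 459.3 to 682.8 there and 6852 to 16550 in F_DPP4_neg. Their part in the result was not tested.

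The last pair set gonadal FIP against inguinal DPP4_pos cells. In females 4 genes were higher and 6 lower (44.7% of all genes called, 22.1% higher and 22.6% lower), a count of 10 that was 5 without F_DPP4_pos replicate 1, 6 without F_DPP4_pos replicate 3 or F_FIP replicate 2 and 27 without M_DPP4_neg replicate 1 (48.3%). In males 3 were higher and 28 lower (65% of all genes called, 32.6% higher and 32.4% lower), with 10 lower genes in complex V, 8 in complex IV, 7 in complex I and 3 in complex III. The male median was -0.17, against 0.02 for all genes and -0.29 for the other genes of up to 1 kb. After removal of the length trend 8 were higher and 18 lower in males (65.9% of all genes called), 6 of the lower ones in complex V, with a median of -0.09, and quantile normalization gave 20 calls. The genes lower in both sexes numbered 6 (7.69% of the 78, against 17.2% of all genes tested): Ndufa1, Cox5a, Cox6c, Cox7b, Atp5f1 and Atp5l. Cox5a, a subunit of complex IV, had 285, 298 and 302 normalised counts in M_FIP and 419, 465 and 472 in M_DPP4_pos (-0.61 ± 0.14, limma, adjusted p = 0.000377), with no overlap.

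Atp5d and Atp5b, of the F1 head, differed between the sexes in this pair. Atp5d had 336, 348 and 354 normalised counts in M_FIP and 502 to 547 in M_DPP4_pos (-0.61 ± 0.08, limma, adjusted p = 7.48e-07), while the female groups overlapped at 339, 371 and 387 against 337, 372 and 445. Atp5b had 4675, 4782 and 4959.8 in M_FIP and 6761, 6771 and 6936 in M_DPP4_pos. The contrast was lower in males than in females for Atp5d (-0.54, adjusted p = 0.000941), Uqcrfs1, the Rieske protein of complex III (-0.36, adjusted p = 0.0479), and Atp5b (-0.35, adjusted p = 0.0121), and these were the 3 genes of 78 called (34.9% of all genes, 15.7% higher and 19.2% lower).

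The isoforms gave the widest differences. Of the paired complex IV subunits Cox6a, Cox6b and Cox8, the widely made form lay above the other in each of the 8 group means per kb of exon. Cox6a1 ranged over group means of 1944 to 3142 per kb and Cox6a2 over 0 to 3.602, Cox8a over 1273 to 1849 and Cox8b over 1.668 to 287.5. Cox6b1 lay between 801.4 and 1176 and Cox6b2 between 5.57 and 55.36. Cox7a1, the muscle and heart form, lay between 19.35 and 60.27, near Cox7a2 at 14.27 to 22.41, whose counts are low as described. For the c-ring of complex V, made from 3 genes with the same mature protein, Atp5g3 was the highest (1527 to 2269), then Atp5g2 (313.2 to 468.2) and Atp5g1 (54.07 to 65.27).

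**Figure D4:**
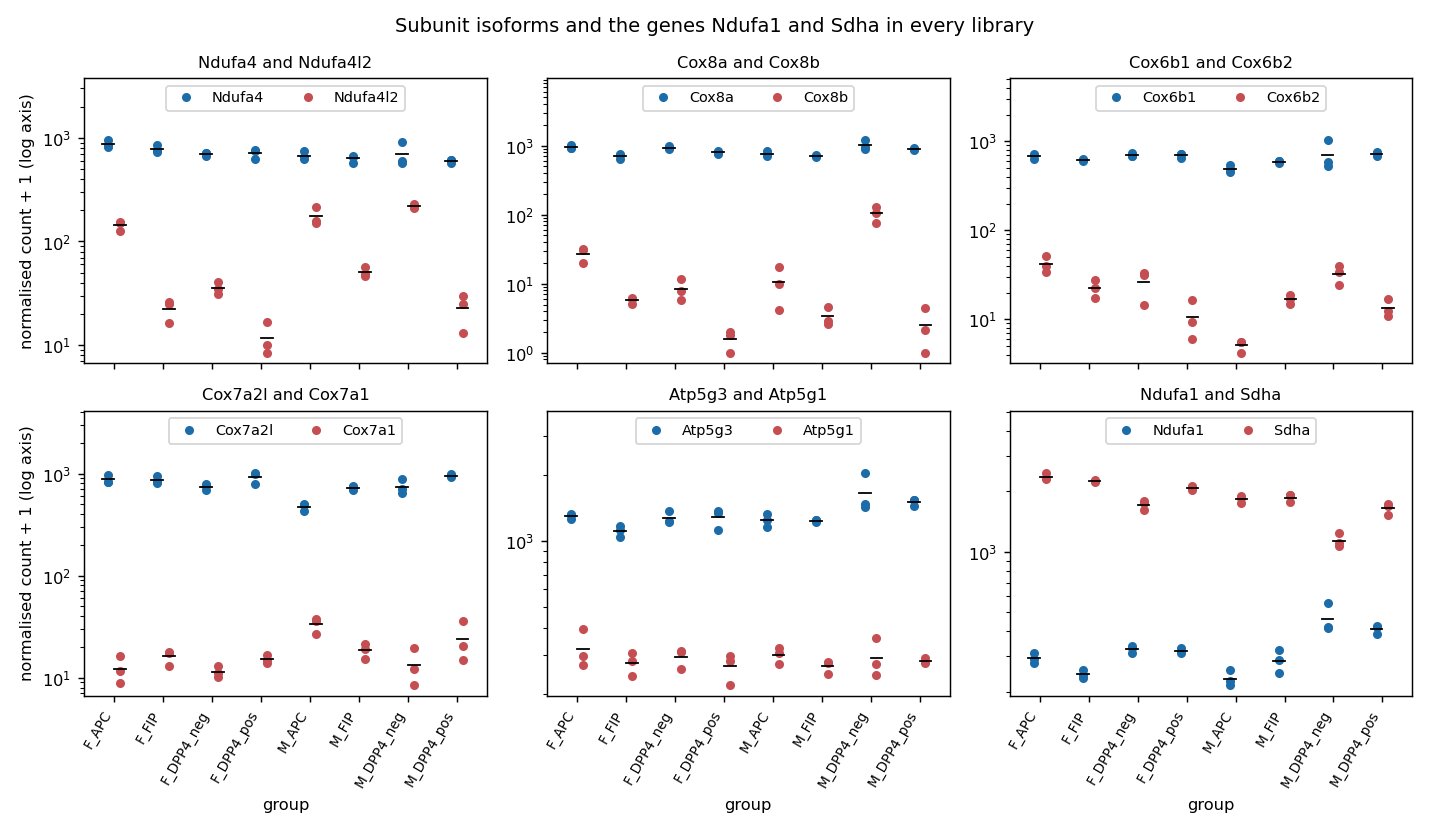
Normalised count + 1 (vertical axes, log scale) of isoform genes and of Ndufa1 and Sdha in the 24 libraries by group (horizontal axis); short lines are group means. Cox8b lies between 74.5 and 129.9 normalised counts in M_DPP4_neg and at or below 30.4 in the other groups, while Cox8a stays between 633.9 and 1189 throughout.

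Ndufa4l2, a paralog of Ndufa4 known as a gene induced in low oxygen and made in mural cells, separated the populations within each depot. It had 124, 149 and 154 normalised counts in F_APC and 15.4, 23.9 and 24.9 in F_FIP (-2.70 ± 0.26, limma, adjusted p = 4.94e-09). In males it had 151, 155 and 214 in M_APC and 45.3, 47.1 and 56.2 in M_FIP (-1.78 ± 0.26, adjusted p = 4.29e-06). The APC groups were high and the FIP groups low, with no overlap in either sex. In inguinal fat DPP4_neg lay above DPP4_pos, with 211, 216 and 227 against 12.1, 23.7 and 28.8 in males (-3.36 ± 0.26 for DPP4_pos, adjusted p = 3.92e-11, and -3.38 without M_DPP4_neg replicate 1) and 30.2, 34.1 and 39.6 against 7.44, 9 and 15.6 in females. These pairs did not overlap either. Male DPP4_neg exceeded female DPP4_neg by 2.63 ± 0.26 (adjusted p = 4.42e-09), and by 2.65 (adjusted p = 4.89e-08) without replicate 1. Notch3, a mural gene chosen after its values were seen, went the same way in the contrasts given here. F_APC libraries had 891 to 1373 and F_FIP libraries 184 to 210.2, and M_DPP4_neg had 488 to 1057 against 26.4 to 122 in M_DPP4_pos. In F_DPP4_neg it had 555 to 834, a range that overlaps that of the male group. The other mural markers are not given here, so Notch3 alone does not describe mural cells. The part of mural cells in the level of Ndufa4l2 was not tested.

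Cox8b, the muscle and brown-fat form of a small complex IV subunit, stood out in male DPP4_neg cells. It had 74.5, 106 and 129.9 normalised counts there and 4.77, 6.97 and 10.7 in F_DPP4_neg (3.65 ± 0.49, limma, adjusted p = 7.92e-07), a difference of 3.47 without replicate 1 of the male group (adjusted p = 1.32e-05). Female APC followed with 19, 29.7 and 30.4, and male APC had 3.22, 9.05 and 16.2. The DPP4_pos groups held 0 to 3.46, a few reads, so log2 differences that involve them depend on the pseudocount. The sum of striated muscle markers, 408 to 533 in M_DPP4_neg, was higher in M_APC (2029 to 2137) and M_FIP (1281 to 1448). Ucp1, the defining brown-fat gene, stayed between 0 and 15.07 in all libraries. The part of muscle or brown-fat cells in the level of Cox8b was not tested.

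Cox6b2, known mainly from testis, was lowest in male APC among the gonadal groups. It had 33.3, 38.6 and 51.2 normalised counts in F_APC and 3.22, 4.53 and 4.64 in M_APC (-3.02 for males, limma, adjusted p = 8.42e-08), with 13.8, 16.1 and 17.8 in M_FIP. Cox7a1 went the other way, with 7.92, 10.7 and 15.2 in F_APC and 25.8, 34.8 and 36.2 in M_APC (1.47, adjusted p = 0.000586). M_APC was the group where the sum of striated muscle markers was highest. The part of these markers was not tested.

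Promoter sequences of 65 of the 78 genes were found in RefSeq (GRCm38.p6), each from 250 bases before to 50 bases after the gene's start. Both strands were searched for motifs of factors known to regulate respiratory genes, taken as fixed letters. The NRF1 motif, GCGC then any base then TGCGC, was found in 15 of the 65 promoters (23.1%), against 9.82% of the promoters of tested genes and 4.78% of all promoters. The ETS-family motif CCGGAAG was found in 13 (20%), against 17.1% of tested genes and 9.12% of all. The YY1 motif, AAGATG followed directly by GCGG, was found in 4 (6.15%), against 1.99% and 0.899%, and the ERR motif TCAAGGTCA in 1 (1.54%, Atp5g3), against 0.243% and 0.407%. A match describes letters and is not a binding site. The 250 bases upstream of 3 genes are shown, read 5′ to 3′ on the gene's strand, to set the widely made Cox6a1 and Uqcrh beside Cox8b, whose level varied most; capitals mark the matches on either strand.
Cox6a1: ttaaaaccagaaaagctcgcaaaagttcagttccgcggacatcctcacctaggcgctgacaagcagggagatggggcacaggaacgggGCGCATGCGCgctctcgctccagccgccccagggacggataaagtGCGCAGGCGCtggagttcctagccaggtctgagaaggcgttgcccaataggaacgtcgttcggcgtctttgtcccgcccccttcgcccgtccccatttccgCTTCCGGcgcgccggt
Uqcrh: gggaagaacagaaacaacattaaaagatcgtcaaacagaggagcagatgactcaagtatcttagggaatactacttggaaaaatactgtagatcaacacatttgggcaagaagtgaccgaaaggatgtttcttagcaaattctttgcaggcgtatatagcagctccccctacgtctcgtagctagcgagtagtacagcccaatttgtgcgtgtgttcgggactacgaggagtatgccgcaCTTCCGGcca
Cox8b: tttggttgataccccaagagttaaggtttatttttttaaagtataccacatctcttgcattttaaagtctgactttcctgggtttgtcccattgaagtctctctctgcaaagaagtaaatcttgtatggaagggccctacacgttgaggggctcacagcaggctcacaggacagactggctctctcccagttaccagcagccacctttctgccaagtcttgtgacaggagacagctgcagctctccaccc
Cox6a1 (chr5:115348959-115349208, minus strand) holds 2 NRF1 matches and 1 ETS match, and 26 CG pairs at 62.8% G and C. Uqcrh (chr4:116075071-116075320, minus strand) holds 1 ETS match and 11 CG pairs at 45.6%. Cox8b (chr7:140900447-140900696, minus strand) holds none of these letters and 1 CG pair at 47.2%.

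The subunits encoded by mitochondrial DNA moved with the nuclear ones in some comparisons and apart from them in others. All 13 were in the table and 10 were tested. In M_DPP4_pos against F_DPP4_pos all 10 were higher, with a median of 0.88, while the nuclear genes had 8 higher and 4 lower. Of all genes tested 52.6% were called there. In F_DPP4_pos against F_DPP4_neg 9 were lower (median -0.71), where 49.7% of all genes were called. In F_FIP against F_APC both sets had lower calls, 7 of the 10 mitochondrial genes (median -0.47) and 26 of the 78 nuclear genes. These were 33.3% of the nuclear genes, against 39.4% of all genes called in either direction. Summed normalised counts of the 13 were 64560 to 76170 in F_DPP4_pos, 92530 to 95220 in F_FIP and 112700 to 152900 in the other 6 groups, so no other library reached these 2 female groups on this scale. Nuclear subunit genes summed to 44400 to 48470 in F_DPP4_pos and 43880 to 47650 in F_DPP4_neg, ranges that overlap. The sums depend on the scaling. As a share of all normalised counts of a library, the nuclear genes made up 0.2979 to 0.3351% in F_DPP4_pos and 0.3385 to 0.3564% in F_DPP4_neg, which do not overlap. The mitochondrial share was 0.4332 to 0.529% in F_DPP4_pos, below every other library, but the 0.7075 to 0.7313% of F_FIP overlapped the 0.7278 to 0.847% of M_DPP4_pos. In male APC against female APC, where 33 nuclear genes were lower, the mitochondrial genes had a median of -0.06.

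**Figure D5:**
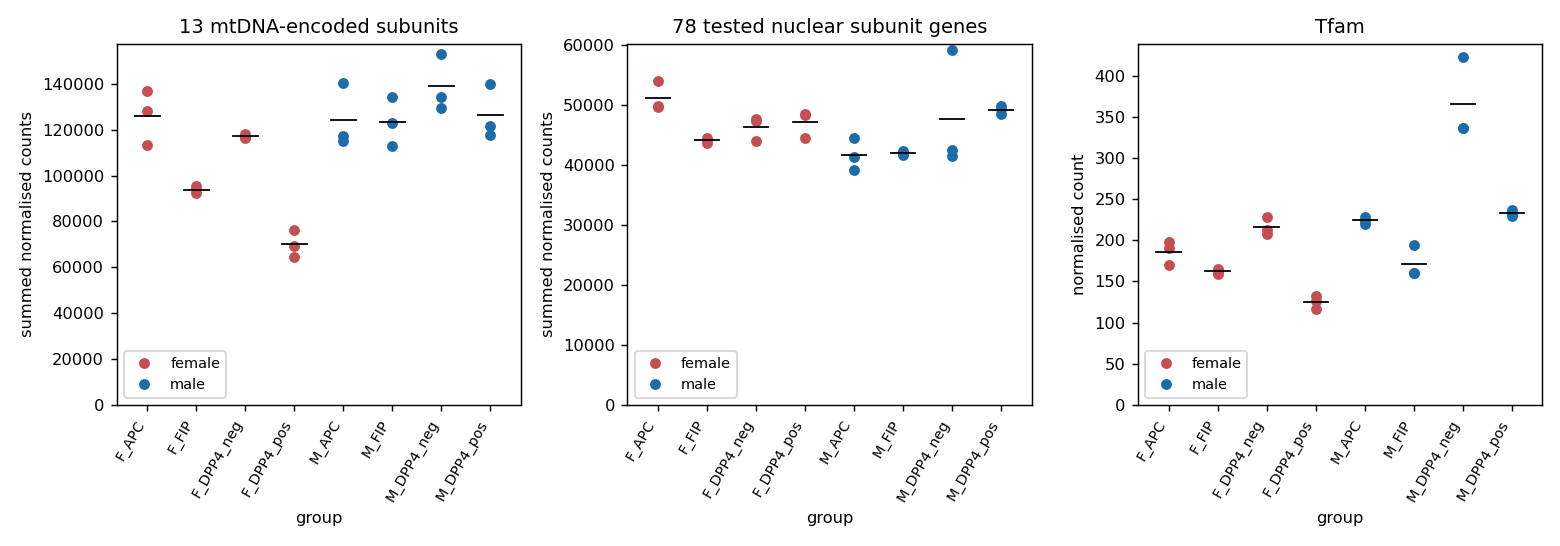
Summed normalised counts of the 13 mitochondrially encoded subunits, summed normalised counts of the 78 tested nuclear genes, and normalised counts of Tfam (vertical axes) in the 24 libraries by group (horizontal axis); short lines are group means. F_DPP4_pos is lowest in the first panel (64560 to 76170) and for Tfam (116 to 132), and not in the panel of nuclear genes.

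Tfam, which packages and transcribes mitochondrial DNA, had 116, 126 and 132 normalised counts in F_DPP4_pos, below all other libraries. F_DPP4_neg had 207, 213 and 228, M_DPP4_pos 229.6, 232 and 236, and M_DPP4_neg 337, 337 and 423. The difference was -0.79 for F_DPP4_pos against F_DPP4_neg (limma, adjusted p = 3.28e-07) and 0.90 for male against female DPP4_pos (adjusted p = 4.55e-08). Polrmt, the mitochondrial RNA polymerase, was 73.2 to 90.9 in F_DPP4_pos and 99.1 to 123 in M_DPP4_pos. Of the 15 tested regulators of mitochondrial biogenesis, 2 rose and 6 fell in F_DPP4_pos against F_DPP4_neg, a share of 53.3% against 49.7% of all genes tested. Ppargc1a, a coactivator of the programme, stayed between 0 and 28.3 in all libraries, and was called at these low counts. It was higher in male against female APC (2.79), M_APC against M_DPP4_neg (1.88) and M_FIP against M_DPP4_pos (1.61). It was lower in M_FIP against M_APC (-2.23) and in DPP4_pos against DPP4_neg in females (-2.12) and males (-1.96).

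Neighbouring pathways were counted in lists chosen with earlier results of these data known. In APC against DPP4_neg, 10 of 17 tested genes of fatty acid beta-oxidation were higher and 1 lower in females, and 11 higher and 2 lower in males. These are 64.7% and 76.5% of the list, against 59% and 66.1% of all genes tested, and without M_DPP4_neg replicate 1 the male count was 14 higher and 2 lower (64.4% of all genes). The tricarboxylic acid cycle had 10 higher and 2 lower of 19 in females (63.2%) and 9 and 4 in males (68.4%), shares near those of all genes. Assembly factors of complex I had 6 higher and 2 lower of 16 in females (50%) and 7 and 2 in males (56.2%), and those of complexes II to V 12 higher and 5 lower of 29 in each sex (58.6%), all below the share of all genes. Without M_DPP4_neg replicate 1 the male assembly factors had 8 higher and 1 lower, and 14 higher and 2 lower. In male against female APC, the tricarboxylic acid cycle had 1 higher and 10 lower, beta-oxidation 0 and 6, and the mitochondrial ribosome 1 and 1 of 30, shares of 57.9%, 35.3% and 6.67% against 44.4% of all genes. In male against female DPP4_pos, 2 beta-oxidation genes were higher and 12 lower (82.4%, against 52.6% of all genes). A list of 8 genes was meant for subunits that the symbol rule misses, such as Cox4i1 and Cyc1. It also held Atp5mpl, which the rule takes and which is already counted in complex V. In male against female APC 0 were higher and 4 lower (Atp5mpl, Cox4i1, Cycs and Atpif1), and Cyc1 was not called. In male APC against DPP4_neg 0 were higher and 5 lower (Atp5mpl, Cox4i1, Cyc1, Cycs and Usmg5). Both counts were the same without M_DPP4_neg replicate 1. Uqcc2, an assembly factor of complex III, rose with FIP and DPP4_pos, from 140.3 to 157 in M_APC to 421 to 475 in M_FIP, and from 174 to 248.6 in M_DPP4_neg to 599 to 654 in M_DPP4_pos (1.62 and 1.61 on the log2 scale, limma, adjusted p = 5.7e-12 and 2.8e-12, the latter 1.77 without M_DPP4_neg replicate 1).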

How the data were processed

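Bulk RNA-seq values of 24 libraries in 8 groups of 3 were analysed. The deposited values are normalised counts, a signal in which the authors divided the reads per gene by a size factor per library; the submitters' processing notes name DESeq2 1.6.3, featureCounts 1.4.6, HISAT2 2.0.1 and Trim Galore 0.4.1, and the build GRCm38/mm10, and the strand setting is not given in the sources used here. Groups came from the sample titles and columns from their names.

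Genes with at least 10 normalised counts in at least 3 libraries (14517 of 27179) were tested with limma 3.58.1 (R 4.3.3) on log2(value + 1), in 1 fit over the 8 groups, so that all groups share the estimate of spread per gene. A fold change on this scale understates the change of low genes. The 16 contrasts were adjusted by the Benjamini-Hochberg method, each over all genes, at 0.05. In 21 libraries 100% of values were whole multiples of 1 read to within 0.01, and edgeR 4.0.16 on those reads was an added alternative; the other 3 libraries were left out of it because their step is close to 1. Alternatives planned were a pseudocount of 10, no filter, quantile normalization of the log2 values, a block on the replicate number and leaving out each library. Removing a lowess trend of each library's values with exon length (span 0.3) was added after seeing the data, like edgeR. The fit was also run on simulated data, whose settings and outcome are not given here, so no result rests on it.

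Genes named were those with a group mean of at least 100, the 4 largest called in each direction per comparison (3 per difference between sexes), all genes with paralogous isoforms and the Sdh genes, and from each list up to 3 called genes. Other genes, among them Ndufv2, Uqcrfs1, Atp5b, Notch3, Cyc1, Cox4i1 and the gene sets named in both sexes, were chosen after their values were seen. The members and lists were chosen with earlier results of these data known. Replicates of a group correlated at 0.982 to 0.992 (Pearson, across genes). Reads from near-identical copies cannot be told apart. Results for 1 tested gene are not reported here; it stays in the counts.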

Additional observations from a re-analysis of the deposited data

Results flagged for a closer look

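The contrast differed between males and females, by a test of the difference itself (limma, male minus female, log2), in the following cases. For FIP against APC, 6 genes were called, among them Cox6b2 (2.62, adjusted p = 0.000649), Atp5mpl (0.74, adjusted p = 0.0303), Cox7a2l (0.63, adjusted p = 0.00578), Ndufa1 (0.56, adjusted p = 0.0131) and Uqcrc2 (0.31, adjusted p = 0.0232). For DPP4_pos against DPP4_neg, 3 genes were called: Cox8b (-3.18, adjusted p = 0.00112), Ndufa4l2 (-1.70, adjusted p = 0.000931) and Sdha (0.26, adjusted p = 0.0374), or 3.85% of the 78 against 29% of all genes tested. Without M_DPP4_neg replicate 1 there were 14, and these values were -3.00, -1.72 and 0.32. The value for Cox8b, DPP4_pos vs DPP4_neg, M minus F, rests on DPP4_pos libraries with 0 to 3.46 normalised counts and depends on the pseudocount: it was -2.57 with a pseudocount of 10. For FIP against DPP4_pos, 3 were called: Atp5d (-0.54), Uqcrfs1 (-0.36) and Atp5b (-0.35).

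For APC against DPP4_neg, 30 genes were called. Isoform genes gave the widest values: Cox8b -5.22 (limma, adjusted p = 1.45e-06), Cox6b2 -3.40 (adjusted p = 3.75e-06), Ndufa4l2 -2.36 (adjusted p = 1.11e-05) and Cox7a1 1.31 (adjusted p = 0.0223). Atp5mpl had -0.95, Cox7a2l -0.87, Cox7b -0.46 (adjusted p = 0.0264), Cox8a -0.43 (adjusted p = 0.00671) and Atp5g3 -0.42 (adjusted p = 0.0165). Sdha went the other way by 0.23 (adjusted p = 0.0449). Without M_DPP4_neg replicate 1 the values were -5.04 for Cox8b, -3.25 for Cox6b2, -2.38 for Ndufa4l2 and -0.67 for Atp5mpl, each still called. The criterion for 1 outlying value in a group needs more than 3 libraries and was not applied; the library that stood apart across many genes is described in the results.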

How the results depend on the processing

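Counts of called subunit genes ranged over the leave-one-out fits from 13 to 44 for F FIP vs APC, 5 to 15 for M FIP vs APC, 4 to 20 for F DPP4_pos vs DPP4_neg, 10 to 44 for M DPP4_pos vs DPP4_neg, 24 to 47 for APC M vs F, 3 to 12 for FIP M vs F, 13 to 30 for DPP4_neg M vs F, 7 to 23 for DPP4_pos M vs F, 18 to 31 for F APC vs DPP4_neg, 40 to 45 for M APC vs DPP4_neg, 5 to 27 for F FIP vs DPP4_pos and 22 to 37 for M FIP vs DPP4_pos. For the difference between sexes they ranged from 4 to 17 for FIP vs APC, 2 to 14 for DPP4_pos vs DPP4_neg (5 without F_DPP4_neg replicate 3, 14 without M_DPP4_neg replicate 1), 22 to 38 for APC vs DPP4_neg and 2 to 4 for FIP vs DPP4_pos. M_DPP4_neg replicate 1 gave the highest count in 13 of the 16 contrasts. With the replicate block the 16 counts were 24, 9, 13, 18, 35, 4, 20, 12, 23, 44, 9 and 32 in the order above and 6, 3, 30 and 2 for the differences, each within 1.5 times the count without it. Same-numbered libraries of different groups share only a number: their deviations correlated at -0.173 to 0.201 (84 pairs), against -0.153 to 0.196 for other numbers.

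Other settings moved counts by more than 1.5 times as follows, and the cause was not tested. F FIP vs APC gave 17 with no filter, 44 with quantile normalization, 16 with edgeR and 14 length-adjusted. M FIP vs APC gave 16 length-adjusted, F DPP4_pos vs DPP4_neg 8 with edgeR, and M DPP4_pos vs DPP4_neg 11 with quantile normalization, 10 with edgeR and 33 length-adjusted. FIP M vs F gave 6 with quantile normalization and 13 length-adjusted, DPP4_neg M vs F 32 length-adjusted, and DPP4_pos M vs F 7 with edgeR. F APC vs DPP4_neg gave 39 with quantile normalization, F FIP vs DPP4_pos 1 with edgeR, and M FIP vs DPP4_pos 20 with quantile normalization. The differences between sexes gave 12 for FIP vs APC with quantile normalization and 12 length-adjusted, 5 for DPP4_pos vs DPP4_neg with quantile normalization, 1 with edgeR and 12 length-adjusted, and 6 for FIP vs DPP4_pos length-adjusted. Over all genes edgeR called from 1347 (FIP vs APC, M minus F) to 9450 (M APC vs DPP4_neg). Of single genes, Ndufa4 in M APC vs DPP4_neg turned to 0.28 and Cox8a in APC vs DPP4_neg, M minus F, to 0 when length-adjusted, and Atp5g3 in M FIP vs DPP4_pos to 0.03 with quantile normalization; over all settings and named genes 9400 results stayed on their side of the threshold, 327 lost the call and 110 gained it. With 3 libraries a group, 1.5-fold differences can be missed, and the depth of 3 libraries is not known from recovered reads.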

Other observations

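The 7 genes called in none of the 12 pairwise comparisons were Ndufa11, Ndufc1, Ndufc2, Ndufs6, Ndufs6b, Cox7a2 and Atp5g1. Ndufc2, a membrane-arm subunit of complex I, ranged from 307 to 523 normalised counts over the 24 libraries, with a median of 346, and Atp5g1, the scarcest of the c-ring genes, from 218 to 395 with a median of 279.6. A gene that was not called can still differ by less than these libraries can resolve.

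Pcx, which encodes pyruvate carboxylase and feeds the tricarboxylic acid cycle, fell in FIP against APC by 2.24 in females (log2, limma, adjusted p = 2.58e-12) and by 1.30 in males (adjusted p = 2.65e-08). Its normalised counts were 496 to 550.3 in F_APC and 88.6 to 138 in F_FIP, and 438 to 502.3 in M_APC and 181 to 207 in M_FIP, with no overlap in either sex. It also fell in DPP4_pos against DPP4_neg, by 1.21 in females (adjusted p = 6.68e-08) and 0.98 in males (adjusted p = 1.47e-06; a fall of 0.88 without M_DPP4_neg replicate 1). Adipocyte markers were lower in the same groups, and their part was not tested.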
